A study of Ambystoma mexicanum with 3 samples.

Results

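Erythrocyte-like nuclei of the amputated axolotl tail tip were selected on 4 transcripts: CUBN8.1, SLC4A1, RHAG and ALAS2. A nucleus was a member when it held at least 3 UMIs (unique molecular identifiers, each counting 1 captured RNA molecule) from at least 2 of these symbols, and when its total reached 1300 UMIs in Rom 6 HPA and 0 HPA or 2000 UMIs in Cont 6 HPA. The rule found 673 nuclei among 20850 that reached these totals and among 133193 barcodes in all. The members were chosen by measured values, so the 4 rule transcripts are given here as a description only. The data go partly against the label: 206 of the 673 nuclei also met the rule when CUBN8.1 was left out, and 467 met it only with CUBN8.1. The whole set is therefore called marker-selected nuclei, the 206 are called CUBN8.1-independent nuclei and the 467 CUBN8.1-dependent nuclei. The remaining 20177 gated nuclei (those at or over the UMI total of their library) served as the comparison.

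Single-nucleus RNA was captured from tail tips of stage 42 axolotl (Ambystoma mexicanum) embryos. Each condition was 1 droplet library made from pooled tissue, of 100 embryos in each 6 h arm. Rom 6 HPA came from embryos kept in 10 µM romidepsin, a histone deacetylase inhibitor, for 6 h after removal of 2 mm of tail; Cont 6 HPA came from embryos amputated in the same way and kept in rearing water without the drug, and 0 HPA from tissue taken at amputation. The labels write day 6 where the study's design and methods give hours, and the hours are used here. With 1 library for each condition there was no replicate, so no p-value is given, and every interval below is an exact 95% interval that covers counting error only. Differences between conditions cannot be told apart from differences between libraries, tissue pools or nuclei preparations.

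The libraries held 44735 barcodes in Rom 6 HPA, 56936 in Cont 6 HPA and 31522 in 0 HPA, with 42537606 to 105765943 UMIs in all. The study's text gives the nuclei numbers of the treated and untreated 6 h libraries the other way round, and the labels of the files were followed here. The gates left 7509 nuclei in Rom 6 HPA, 6354 in Cont 6 HPA and 6987 in 0 HPA. No barcode was shared among the marker-selected nuclei of any pair of libraries, and 13 to 21 were shared among the gated nuclei of a pair. Transcripts of skin were found in every set of nuclei. Levels are given in CPM, the UMIs of a transcript scaled to a common total in each set of nuclei. The summed level of 13 matched epidermal markers was 16993 to 20865 CPM in marker-selected nuclei and 18591 to 21862 CPM in other gated nuclei. In CUBN8.1-independent nuclei it was 16007 to 16500 CPM, below the other gated nuclei in each library. Of the marker-selected nuclei, 99.7 to 100% held 3 UMIs from 2 of these skin markers, as did 99.6 to 99.98% of other gated nuclei. The part of free RNA in any level given here was not tested.

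Erythrocytes carry oxygen on haemoglobin, a complex of globin chains with haem. In amphibians, unlike mammals, circulating erythrocytes keep their nucleus, and larval red cells can still divide in the blood. Haem is made in a chain of enzymes that starts in the mitochondrion with ALAS2 in erythroid cells and ends there with FECH, which inserts the iron. SLC4A1 (band 3) exchanges chloride and bicarbonate across the red cell membrane, and RHAG is the Rh-associated ammonium channel. SLC4A1 is also known from acid-secreting cells of kidney and skin, so it is not a marker of red cells alone.

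Marker-selected nuclei made up 2.45% of gated nuclei in Rom 6 HPA (184 nuclei; 2.11 to 2.83%), 6.11% in Cont 6 HPA (388; 5.53 to 6.72%) and 1.45% in 0 HPA (101; 1.18 to 1.75%). CUBN8.1-independent nuclei made up 0.786% in Rom 6 HPA (59 nuclei; 0.599 to 1.01%), 1.70% in Cont 6 HPA (108; 1.40 to 2.05%) and 0.558% in 0 HPA (39; 0.397 to 0.762%). Both shares were highest in Cont 6 HPA, the library with the higher gate and the deeper nuclei. The median total was 2503 UMIs in marker-selected nuclei of Rom 6 HPA, 3727 in those of Cont 6 HPA and 2593 in those of 0 HPA, against 2168, 3385 and 2190 in other gated nuclei of the same libraries. With every gated nucleus thinned to 1300 UMIs, 0.772% met the rule in Rom 6 HPA, with an interval of 0.587 to 0.997%. The thinned share was 1.27% in Cont 6 HPA, with an interval of 1.01 to 1.58%, and 0.501% in 0 HPA, with an interval of 0.349 to 0.696%. Cont 6 HPA stayed highest, with an interval that overlapped neither 0 HPA nor, by a small margin, Rom 6 HPA. The thinned nuclei had still been chosen at the unequal gates. These intervals cover counting error within each library and not the spread between libraries, so they do not separate the conditions. Fewer red cells in a pool and fewer marker transcripts in each nucleus cannot be told apart by these shares.

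SLC4A1, RHAG and ALAS2 were each carried by 1 transcript feature and were concentrated in the selected nuclei, which the rule itself ensured. SLC4A1 had 794, 737 and 1290 CPM in CUBN8.1-independent nuclei of Rom 6 HPA, Cont 6 HPA and 0 HPA, against 24.2, 20.5 and 13.01 CPM in other gated nuclei of these libraries. ALAS2 had 433, 395 and 470 CPM in those nuclei in the same order of libraries, against 20.5, 15.7 and 5.297 CPM. RHAG had 205, 262 and 316 CPM, against 8.099, 7.998 and 4.84 CPM. CUBN8.1 behaved differently. At least 1 CUBN8.1 UMI was found in 33.3% of other gated nuclei in Rom 6 HPA, 46.9% in Cont 6 HPA and 40.0% in 0 HPA, while 1.16 to 6.30% of those nuclei held a UMI of any given one of the other markers.

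The symbol CUBN8.1 joins 6 transcript features in these files, and only 1 of them followed the erythroid markers. Feature AC_02200045318.1 had 22 UMIs in CUBN8.1-independent nuclei of Rom 6 HPA against 43 in all other gated nuclei of that library, a CPM ratio of 52.3 (29.8 to 89.3). In Cont 6 HPA it had 61 against 42 UMIs, a ratio of 78.6 (52.2 to 119). In 0 HPA it had 31 against 8 UMIs, a ratio of 575 (259 to 1448). The other 5 features had ratios of 0.426 to 1.67, and each interval included 1. These 5 features supplied most CUBN8.1 UMIs: AC_02200045618.1, for example, had 10 UMIs in CUBN8.1-independent nuclei of Rom 6 HPA and 1202 in other gated nuclei. CUBN8.1 UMIs played no part in choosing the CUBN8.1-independent nuclei, but the comparison nuclei had been chosen with them, since the CUBN8.1-dependent nuclei were left out. With those nuclei added back, a choice made after the data were seen, the ratios of AC_02200045318.1 were 34.3 (20.2 to 56.3) in Rom 6 HPA, 38.03 (27.1 to 53.1) in Cont 6 HPA and 274 (147 to 528) in 0 HPA, and those of the other 5 features were 0.417 to 1.63.

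**Figure D1:**
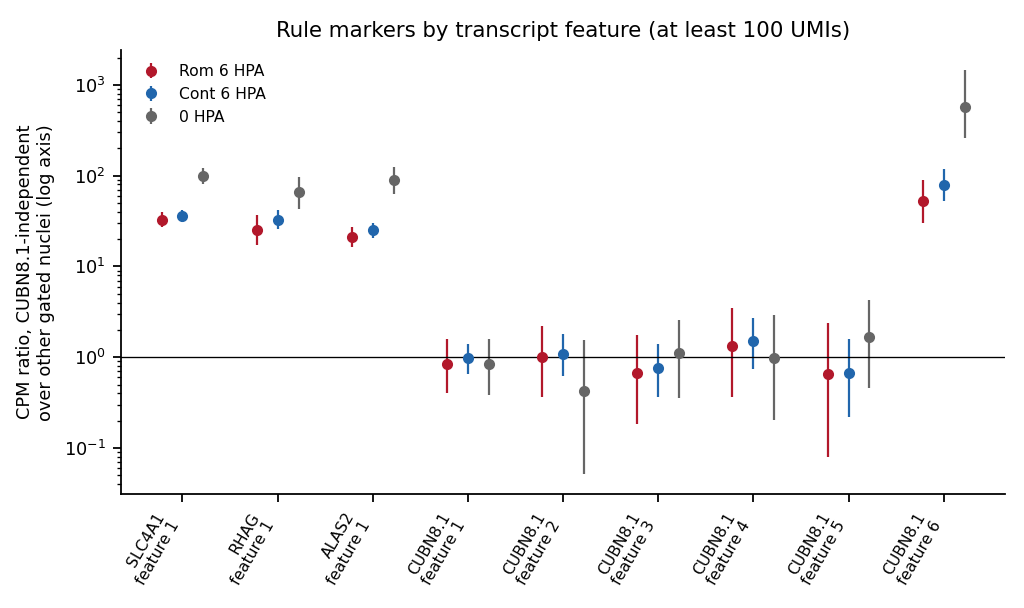
CPM ratio of CUBN8.1-independent nuclei over other gated nuclei (log axis) for each transcript feature of the rule markers with at least 100 UMIs in these sets, in 3 libraries; bars are 95% intervals for counting error. SLC4A1, RHAG and ALAS2 and the sixth CUBN8.1 feature shown (AC_02200045318.1) stand above 20, and the other 5 CUBN8.1 features lie around 1.

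Globins gave a check that the rule did not use. The fixed globin symbols HBA, HBB, HBE1, HBG1 and HBZ were almost empty in these nuclei, and the globin reads carried the symbols HBA-L5 (an alpha-type globin), HBB-BH1 (a beta-type globin) and HBA-L3, which were found after the data were seen. HBA-L5 had 7487 CPM in CUBN8.1-independent nuclei of Rom 6 HPA against 1117 CPM in other gated nuclei, a ratio of 6.71 (6.34 to 7.09). In Cont 6 HPA it had 9410 against 1242 CPM, or 7.58 times as much (7.33 to 7.83), and in 0 HPA 9706 against 308 CPM, or 31.5 times as much (29.5 to 33.6). HBB-BH1 showed the same order, with ratios of 7.61 (6.99 to 8.28), 8.46 (8.04 to 8.897) and 32.7 (29.6 to 36.1). HBA-L3 had 1 UMI in all marker-selected nuclei.

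The larger globin ratio of 0 HPA came with a lower level outside the members. Summed globins had 10741 CPM in CUBN8.1-independent nuclei of Rom 6 HPA, 13537 CPM in Cont 6 HPA and 13944 CPM in 0 HPA, and 1544, 1730 and 438 CPM in other gated nuclei. At least 1 HBA-L5 UMI was found in 91.4% of other gated nuclei of Rom 6 HPA, 98.4% of those of Cont 6 HPA and 50.4% of those of 0 HPA, so a globin UMI alone did not mark a red cell in any library. The part of this background in the ratios was not tested.

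Counted within each nucleus, globins split the members along CUBN8.1. CUBN8.1-independent nuclei held a median of 8.05 globin UMIs per 1000 UMIs in Rom 6 HPA (range 1.11 to 85.5), 9.50 in Cont 6 HPA (0.568 to 91.2) and 14.7 in 0 HPA (0 to 45.6). CUBN8.1-dependent nuclei held medians of 1.92, 1.75 and 0.371, beside 1.43, 1.66 and 0.387 in other gated nuclei. The 99th percentile of other gated nuclei was 7.374 globin UMIs per 1000 in Rom 6 HPA. It was 6.404 in Cont 6 HPA and 2.498 in 0 HPA. The share of CUBN8.1-independent nuclei above it was 55.9% in Rom 6 HPA (33 of 59, 42.4 to 68.8%). It was 67.6% in Cont 6 HPA (73 of 108, 57.9 to 76.3%) and 89.7% in 0 HPA (35 of 39, 75.8 to 97.1%). The same share of CUBN8.1-dependent nuclei was 14.4% (18 of 125), 10.4% (29 of 280) and 9.68% (6 of 62). The percentile differed between libraries, so these shares do not rank the libraries. By this globin measure, set within each library, the label held for most CUBN8.1-independent nuclei of Cont 6 HPA and 0 HPA. It held for a minority of CUBN8.1-dependent nuclei. In Rom 6 HPA the interval of 42.4 to 68.8% did not settle whether it held for most CUBN8.1-independent nuclei. Other red cell transcripts were present in CUBN8.1-dependent nuclei at 6 h. TFR2, described below, had 21.5 CPM in those of Rom 6 HPA (9 UMIs) and 8.09 in those of Cont 6 HPA (11 UMIs). Other gated nuclei had 1.09 and 0.659 CPM. RHD, also described below, had ratios of 4.50 (1.17 to 12.5) and 3.69 (1.86 to 6.80). Neither had a UMI in the 62 CUBN8.1-dependent nuclei of 0 HPA.

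The nuclei just inside and just outside the rule are given side by side. Members at exactly 3 marker UMIs numbered 101 in Rom 6 HPA, 169 in Cont 6 HPA and 34 in 0 HPA, with medians of 1.91, 1.90 and 0.400 globin UMIs per 1000. Nuclei just outside the rule, with 2 UMIs from 2 symbols, numbered 256, 339 and 111, with medians of 1.80, 1.55 and 0.461. Those outside it with 3 or more UMIs from 1 symbol numbered 115, 242 and 212, with medians of 0.958, 1.31 and 0.294. Among gated nuclei sorted by UMIs of SLC4A1, RHAG and ALAS2 alone, the globin median at 3 or 4 UMIs was 5.22 in Rom 6 HPA, 6.86 in Cont 6 HPA and 7.68 in 0 HPA, and at 5 or more UMIs it was 7.95, 8.02 and 11.99.

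**Figure D2:**
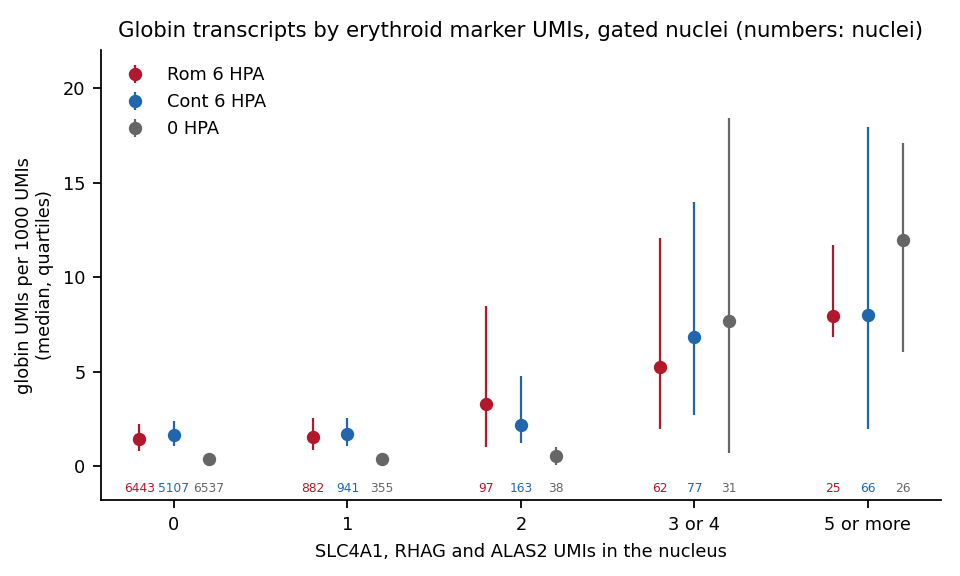
Globin UMIs (HBA-L5, HBB-BH1 and HBA-L3) per 1000 UMIs in gated nuclei, by the number of SLC4A1, RHAG and ALAS2 UMIs in the nucleus; points are medians, bars quartiles, and numbers below count nuclei. Medians stay at 1.42 to 1.72 in both 6 h libraries and at 0.385 to 0.393 in 0 HPA for 0 or 1 UMI, and reach 5.22 to 11.99 from 3 UMIs on.

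Across all symbols, more passed 2-fold in CUBN8.1-independent nuclei than in the whole set. The CUBN8.1-independent nuclei also held fewer UMIs, 117041 to 420489 a library against 331988 to 1779807 in the whole set. Smaller counts pass 2-fold more easily by counting error alone, and the part of this in the counts below was not tested. Of 9045 symbols with at least 20 UMIs in members and other nuclei together in each library, 50 were over 2-fold higher in marker-selected nuclei in each of the 3 libraries (0.553%) and 77 were over 2-fold lower (0.851%). Of 8999 symbols for CUBN8.1-independent nuclei, 124 were higher (1.38%) and 599 lower (6.66%). These percentages are the background for every gene list below.

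Haem synthesis was the list with the most higher members. In CUBN8.1-independent nuclei, 6 of its 10 tested symbols were over 2-fold higher in each library: ALAD, UROD and CPOX, enzymes of the middle of the pathway, FECH, and the transporters ABCB10 and ABCB6. In the whole marker-selected set 2 of the 10 were, FECH and ABCB10. The list's median log2 ratio was 1.79 in Rom 6 HPA, 1.38 in Cont 6 HPA and 2.23 in 0 HPA, beside 0.15, −0.02 and 0.17 for all tested symbols. ABCB10, an inner mitochondrial membrane transporter that stabilises mitoferrin in mouse, had 6, 16 and 5 UMIs in Rom 6 HPA, Cont 6 HPA and 0 HPA, with ratios of 16.1 (5.57 to 38.5), 18.04 (9.56 to 32.3) and 16.9 (5.22 to 42.4). FECH had 9, 22 and 3 UMIs, with ratios of 9.58 (4.25 to 18.96), 10.9 (6.58 to 17.4) and 5.24 (1.06 to 15.8). UROD had 22, 36 and 11 UMIs, with ratios of 3.75 (2.33 to 5.74), 2.58 (1.79 to 3.6002) and 3.603 (1.79 to 6.51). The lower bound for ALAD in 0 HPA and for ABCB6 in Cont 6 HPA and 0 HPA was under 1. ALAS1, the housekeeping form of the first enzyme, was not over 2-fold higher in any library, with 178, 92.7 and 188 CPM in those nuclei, against 136, 130 and 150 CPM in other gated nuclei.

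Among the iron genes, the uptake receptor and the mitochondrial importer are described first. TFR2, transferrin receptor 2, had 7 UMIs in 7 CUBN8.1-independent nuclei of Rom 6 HPA, 34 in 29 nuclei of Cont 6 HPA and 10 in 8 nuclei of 0 HPA, or 38.9, 80.9 and 85.4 CPM, against 1.09, 0.659 and 0.345 CPM in other gated nuclei. Its ratios were 35.8 (12.8 to 88.05), 123 (65.04 to 242) and 247 (81.4 to 828), although its few UMIs in 0 HPA kept it under the filter of the count above. The study had itself used TFR2 and VSIG1 for its erythrocyte clusters, so they are not independent of its annotation. SLC25A37 (mitoferrin-1) was over 2-fold higher in each library, at 49.99, 47.6 and 76.9 CPM against 4.73, 5.01 and 2.99 CPM. NCOA4, the adaptor that delivers ferritin for breakdown, was higher at 83.3, 131 and 154 CPM against 37.7, 43.99 and 44.2 CPM. FTH1, ferritin heavy chain, had 1527, 1277 and 1504 CPM, against 1218, 1215 and 1358 CPM. TFRC, the usual erythroid transferrin receptor in mammals, had no UMI in any gated nucleus. In all, 2 of 7 tested symbols of the list were over 2-fold higher in each library.

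For the membrane and its skeleton, 3 of 11 tested symbols were over 2-fold higher in each library. SPTB, the beta spectrin of red cells, had 128, 133 and 120 CPM in CUBN8.1-independent nuclei of Rom 6 HPA, Cont 6 HPA and 0 HPA, against 25.4, 25.8 and 19.6 CPM. ADD2, beta adducin, had 6, 18 and 7 UMIs, with ratios of 7.76 (2.76 to 17.7), 18.4 (10.1 to 31.9) and 19.2 (7.38 to 42.4). KEL, the Kell blood group protein, had ratios of 4.93 (2.73 to 8.26), 4.83 (3.39 to 6.71) and 4.02 (1.82 to 7.73). Over all marker-selected nuclei of 0 HPA its log2 ratio was 1.03, and −0.35 with nuclei thinned to 1300 UMIs. SLC2A1, the glucose transporter abundant in human red cells, had 106, 35.7 and 0 CPM, against 112, 50.6 and 41.7 CPM. The anchoring proteins EPB41, DMTN and ADD1 had 0 UMIs in marker-selected nuclei and in other gated nuclei alike, and ANK1 had 1 UMI in marker-selected nuclei and 3, 6 and 1 in other gated nuclei, so these symbols allow no comparison.

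Regulators were too sparse to place. GATA1, the master regulator of erythroid genes, had 0 UMIs in CUBN8.1-independent nuclei of Rom 6 HPA, 6 in Cont 6 HPA and 2 in 0 HPA, and the limit set by 3 counts is 16.7 CPM in Rom 6 HPA. In Cont 6 HPA its level was 14.3 CPM against 0.395 CPM, or 36.1 (10.6 to 113) times as much. None of 5 tested regulators was over 2-fold higher in each library. Of 8 tested symbols of erythropoietin signalling, only JAK2, the receptor's kinase, was over 2-fold higher in each library, with 122, 197 and 179 CPM against 37.9, 37.2 and 37.9 CPM. EPOR, the receptor itself, had 0, 1 and 2 UMIs. Of 10 tested symbols of red cell metabolism and antioxidants, BPGM, which makes the haemoglobin effector bisphosphoglycerate, and BLVRB, a flavin reductase of red cells, were over 2-fold higher in each library, and none of 9 tested symbols of organelle clearance was.

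**Figure D3:**
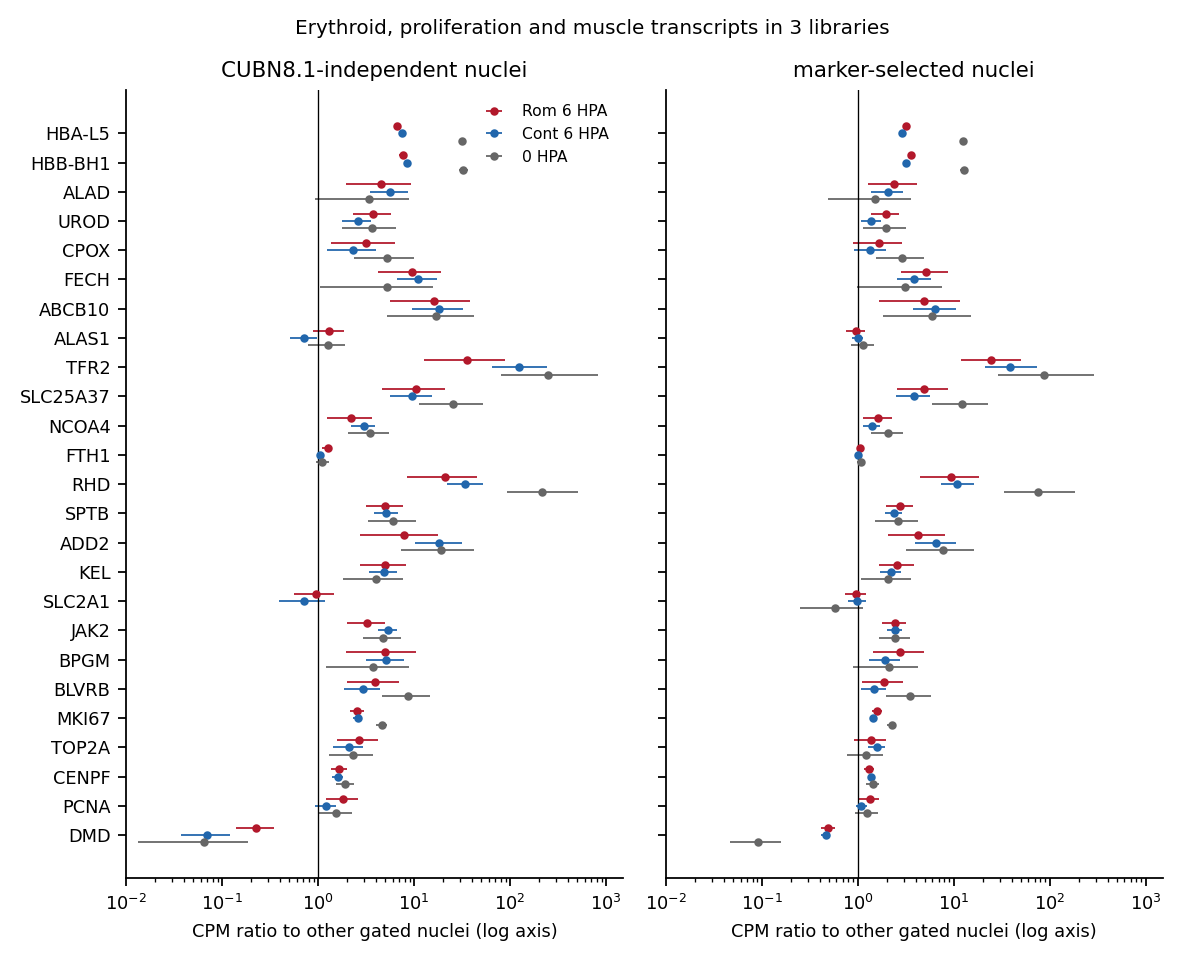
CPM ratio to other gated nuclei of the same library (log axis) for erythroid, proliferation and muscle transcripts, in CUBN8.1-independent nuclei on the left and all marker-selected nuclei on the right; colours are libraries, bars 95% intervals for counting error, and symbols with 0 UMIs are not drawn. Ratios of TFR2 and RHD run from 21.0 to 247 in CUBN8.1-independent nuclei, ALAS1 and FTH1 lie near 1, and DMD lies below 1.

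The highest symbols by the naming rule included cell-surface proteins, receptors and a detoxifying enzyme. By the rule for the 20 highest symbols, RHD, the Rh blood group protein that partners RHAG, came first, with 44.4, 87.99 and 137 CPM in CUBN8.1-independent nuclei of Rom 6 HPA, Cont 6 HPA and 0 HPA, against 2.12, 2.59 and 0.633 CPM in other gated nuclei. VSIG1, an immunoglobulin-domain surface protein, had 77.8, 90.4 and 103 CPM, against 3.37, 3.52 and 0.461 CPM. ACE, the angiotensin-converting enzyme, had 83.3, 92.7 and 120 CPM, against 3.42, 3.56 and 1.15 CPM. The levels of all 3 surface proteins were at least 20 times those of the other nuclei in every library.

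Receptors of several hormone and growth factor families were in the same list. FGFR4, a fibroblast growth factor receptor, had 83.3, 59.5 and 188 CPM, against 3.805, 2.68 and 3.22 CPM. VIPR1, the receptor of vasoactive intestinal peptide, had 49.99, 99.9 and 145 CPM, against 4.51, 4.22 and 2.76 CPM. ADRB1, a beta-adrenergic receptor, had 61.1, 90.4 and 111 CPM, against 10.98, 5.098 and 3.8001 CPM. CYP1A1, a cytochrome P450 that metabolises foreign compounds, had 189, 238 and 214 CPM, against 14.1, 9.89 and 12.8 CPM. NUGGC, a nuclear GTPase, was the most abundant of the list after the globins, at 578, 809 and 863 CPM against 166, 172.9 and 191 CPM. The rest of the 20 were TGM5, SLC25A37, SUSD3, FECH, MIR-142, GRK4, SPNS2, NARF, the globins, ATP6V0A1 and GP1BA. ATP6V0A1 differed from the others, since its ratio in CUBN8.1-independent nuclei was 1.32, 2.28 and 0.989, and that in all marker-selected nuclei 2.88, 2.82 and 7.498. GP1BA, a platelet and thrombocyte glycoprotein, had 8, 32 and 2 UMIs in CUBN8.1-independent nuclei, with ratios of 10.5 (4.37 to 21.7), 16.7 (10.8 to 24.96) and 5.21 (0.616 to 19.7). The 10 matched thrombocyte markers summed to 156 CPM in CUBN8.1-independent nuclei of Rom 6 HPA, 188 in Cont 6 HPA and 85.4 in 0 HPA, against 55.5, 58.4 and 46.7 CPM in other gated nuclei. Of 5 tested thrombocyte symbols, GP1BA and FERMT3 were over 2-fold higher in each library. In Cont 6 HPA 7 of the 108 CUBN8.1-independent nuclei held 3 UMIs from 2 thrombocyte markers, and none did in the other libraries. Over all marker-selected nuclei the sums were 103, 101 and 72.3 CPM, and 2, 11 and 0 nuclei met that rule. A part of thrombocytes in the members was not tested.

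Markers of other cell types differed by type and library. Neural markers summed to 86.7, 42.7 and 295 CPM in marker-selected nuclei of Rom 6 HPA, Cont 6 HPA and 0 HPA, against 86.9, 87.8 and 107 CPM, and melanocyte markers to 120, 270 and 187 CPM, against 128, 157 and 149 CPM. In CUBN8.1-independent nuclei, 7 of 10 tested muscle symbols were over 2-fold lower in each library. DMD, the muscle dystrophin, had 111, 30.9 and 25.6 CPM in those nuclei of Rom 6 HPA, Cont 6 HPA and 0 HPA, against 491, 441 and 400 CPM. In Rom 6 HPA, 12 of the 20 DMD UMIs lay in 1 nucleus. The 5 lowest symbols of the whole set by the naming rule were DMD, the muscle genes SPEG and NRAP, NRP2, a semaphorin receptor, and WU:FD14A01. The 12 lymphoid markers had 3 UMIs in all marker-selected nuclei, with 9 of them at 0.

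Of the proliferation genes, MKI67, the Ki-67 protein of dividing cells, was the most abundant in the CUBN8.1-independent nuclei. It had 783, 863 and 1828 CPM in CUBN8.1-independent nuclei of Rom 6 HPA, Cont 6 HPA and 0 HPA, against 307, 332 and 398 CPM in other gated nuclei. Its ratios were 2.55 (2.15 to 3.02), 2.598 (2.33 to 2.89) and 4.596 (3.99 to 5.27). The transcript was spread over the nuclei, with 46 of 59, 96 of 108 and 38 of 39 nuclei holding at least 1 UMI, and the largest count in 1 nucleus was 9, 16 and 19 UMIs. Of the 446 marker-selected nuclei outside sub-clusters 1, 2, 5 and 7 described below, 307 also held at least 1 MKI67 UMI. Some of those nuclei were CUBN8.1-independent, but an MKI67 UMI alone did not set the CUBN8.1-independent nuclei apart. TOP2A, the topoisomerase of dividing cells, had ratios of 2.64 (1.56 to 4.21), 2.099 (1.44 to 2.97) and 2.296 (1.31 to 3.75). These were the only symbols over 2-fold higher in each library among 10 tested mitosis symbols, and none of 11 tested DNA replication symbols was. PCNA, the replication clamp, had 167, 147 and 214 CPM against 91.9, 123 and 139 CPM. No cell cycle phase was called from these values.

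Graph-based clustering of the 673 marker-selected nuclei gave 11 sub-clusters, described here by their leading genes and levels with no test. Sub-clusters 1, 2 and 7 were grouped because TFR2 and RHD were each over 50 CPM in them, so their TFR2 level restates that choice. They held 200 nuclei (59 in Rom 6 HPA, 107 in Cont 6 HPA and 34 in 0 HPA), of which 141 were CUBN8.1-independent. Their summed globins were 9165, 32858 and 9997 CPM, and TFR2 was 111, 114 and 93.7 CPM. Sub-cluster 2, the globin-rich one, also led in ALAS2 (707 CPM) and UROD (215 CPM), and it held 7.07% of the marker-selected nuclei of Rom 6 HPA, 7.47% of those of Cont 6 HPA and 15.8% of those of 0 HPA. Sub-cluster 7 led in JAK2 (432 CPM) and NUGGC (1449 CPM). Sub-cluster 10, with 55 nuclei of which 39 were CUBN8.1-independent, had globins at 9794 CPM. Its RHD was 64.9 CPM and its TFR2 49.6 CPM, just under the limit for the group. It also held neuronal transcripts such as SNAP25 (103 CPM) and PKD2L1 (107 CPM).

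The neuronal transcripts of the CUBN8.1-independent nuclei came from few nuclei. In 0 HPA, 1 CUBN8.1-independent nucleus of 11513 UMIs, with 22.6 globin UMIs per 1000, carried 16 of the 19 SCN8A UMIs, 15 of 21 for PRPH, 13 of 19 for SNAP25 and 26 of 39 for NEFM. In Cont 6 HPA, 1 nucleus carried 22 of the 23 PKD2L1 UMIs. The deposited nuclei were used without a search for doublets, and doublets were not tested as a source of these counts.

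Sub-cluster 5 held SLC4A1 with few of the other red cell transcripts. Its 27 nuclei (8 in Rom 6 HPA, 13 in Cont 6 HPA and 6 in 0 HPA) had 123 SLC4A1 UMIs, or 891 CPM, but 1 ALAS2 UMI and no UMI of TFR2 or RHD, and summed globins of 797 CPM. Its leading genes included subunits of the vacuolar proton pump, ATP6V0A1 (804 CPM), ATP6V1B1 (261 CPM), ATP6V1AB (203 CPM) and ATP6V0A4 (109 CPM), and the proton channel HVCN1 (449 CPM). In sub-clusters 1, 2 and 7 together, ATP6V0A1 had 6 UMIs in 200 nuclei. Mitochondrial transcripts made up 38.9% of UMIs in sub-cluster 5, against 9.84 to 21.6% in the others. ATP6V0A1 was found in each library of sub-cluster 5, with 14 UMIs in Rom 6 HPA, 76 in Cont 6 HPA and 21 in 0 HPA. Not every further symbol looked at after the sub-clusters were seen was high there. RHCG had 53.8, 80.1 and 0 CPM in sub-cluster 5 in that order of libraries, against 67.4, 59.4 and 52.2 CPM in other gated nuclei. FOXI1 had 1, 4 and 0 UMIs, or 26.9, 45.8 and 0 CPM, against 3.91, 6.24 and 7.02 CPM.

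Proton transport UMIs were counted over ATP6V0A1, ATP6V0A4, ATP6V1AB and HVCN1, leading genes of sub-cluster 5 chosen after the sub-clusters were seen. That sub-cluster had no UMI of TFR2 or RHD, so a low overlap with red cell surface transcripts was partly set by this choice. Of the marker-selected nuclei with at least 3 proton transport UMIs, 2 of 8 in Rom 6 HPA, 0 of 17 in Cont 6 HPA and 0 of 11 in 0 HPA also held a UMI of TFR2, RHD or VSIG1. Among marker-selected nuclei with fewer proton transport UMIs, Rom 6 HPA had 32 with such a UMI and 144 without. Cont 6 HPA had 92 with one and 279 without, and 0 HPA had 28 with one and 62 without. In Rom 6 HPA, the share with such a UMI was thus not lower among the 8 nuclei with at least 3 proton transport UMIs. Under other clustering settings the nuclei of sub-cluster 5 stayed together: all 27 lay in 1 cluster of 36 at resolution 2 and in 1 of 107 at resolution 0.5, and 25 lay in 1 cluster of 29 with 20 components. Of the 27 nuclei, 2 met the rule without CUBN8.1.

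Of the 206 CUBN8.1-independent nuclei, 26 lay outside sub-clusters 1, 2, 7 and 10. The remaining 6 sub-clusters held 3 to 6 of them each, and globins of 971 to 2840 CPM. Sub-cluster 8 had melanocyte transcripts among its leading genes, each found in a minority of its 55 nuclei. These were PMEL (736 CPM, in 22 nuclei), TYRP1 (574 CPM, in 16), TYR (108 CPM, in 13) and DCT (275 CPM, in 10). Of the 55 nuclei, 44 came from Cont 6 HPA. Sub-cluster 11 was muscle-like, with DMD at 2122 CPM, TTN at 8111 CPM and RYR1 at 441 CPM in 34 nuclei. Sub-cluster 3 led in MIR-205, LAMB3 and KRT17, sub-cluster 4 in VCAN and HOXD11, sub-cluster 6 in MUC5B and OTOF, and sub-cluster 9 in MYLPF and ribosomal protein transcripts. CUBN8.1 was present in every sub-cluster, at 261 to 708 CPM, with its highest level in sub-cluster 9.

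**Figure D4:**
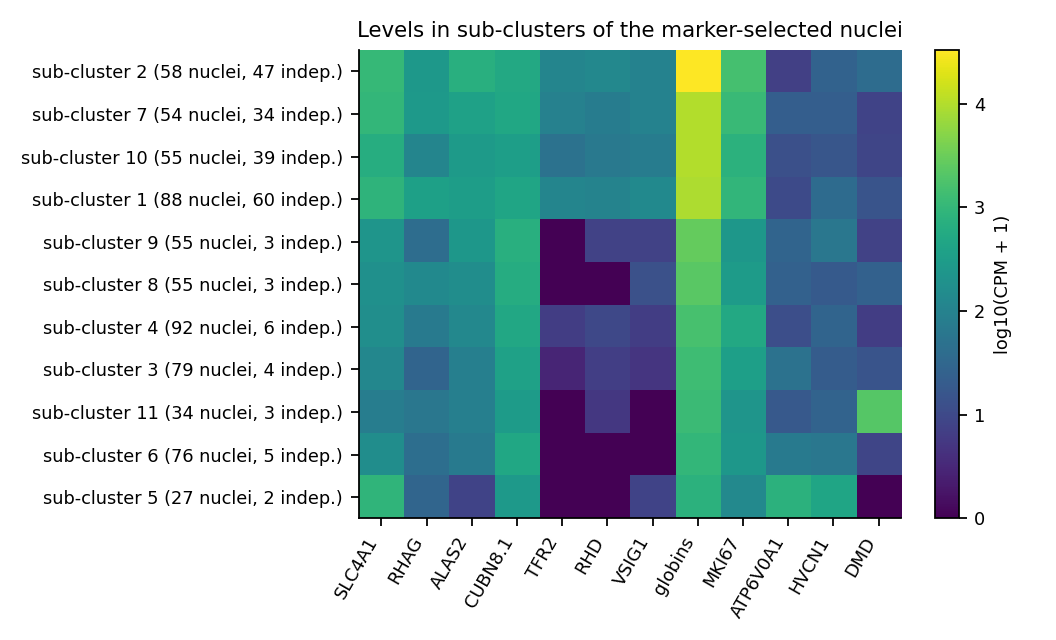
Levels of 11 transcripts and of summed globins, as log10(CPM + 1), in 11 sub-clusters of the marker-selected nuclei, ordered by globin level; labels give the nuclei and how many were CUBN8.1-independent. TFR2, RHD and VSIG1 are high in the 4 upper rows, CUBN8.1 is present in all rows, and SLC4A1 is as high in sub-cluster 5 (891 CPM, bottom row) as in the 4 upper rows while ALAS2 and TFR2 are not.

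Romidepsin was compared with its control at 6 h. Of the symbols, 5357 reached 20 UMIs over the pair of libraries in marker-selected nuclei, and 139 of them were over 2-fold higher in Rom 6 HPA than in Cont 6 HPA (2.59%) and 361 were over 2-fold lower (6.74%). Of these symbols, 20 of the higher and 23 of the lower ones were also past 2-fold in the same direction in other gated nuclei, where 37 (0.691%) and 41 (0.765%) of the 5357 symbols were. The marker-selected nuclei held 599532 UMIs in Rom 6 HPA and 1779807 in Cont 6 HPA, against 18398053 and 22756089 in other gated nuclei. Small counts can pass 2-fold by counting error alone, so these shares do not compare the size of a response. With a minimum of 50 UMIs, 27 symbols were higher (0.868%) and 89 lower (2.86%). HBA-L5 in CUBN8.1-independent nuclei had a log2 ratio of −0.33 (−0.42 to −0.24), beside −0.15 (−0.18 to −0.13) in other gated nuclei, and HBB-BH1 had −0.34 (−0.48 to −0.21) beside −0.19 (−0.23 to −0.15). Over all marker-selected nuclei the log2 ratio was 0.01 (−0.07 to 0.08) for HBA-L5. Summed over nuclei, the globins were thus lower in Rom 6 HPA in CUBN8.1-independent nuclei and in other gated nuclei, but not in the whole marker-selected set. These intervals leave out the spread between nuclei. Counted within each nucleus, CUBN8.1-independent nuclei of Rom 6 HPA had a median of 8.05 globin UMIs per 1000 (quartiles 5.47 and 14.2). Those of Cont 6 HPA had a median of 9.50 (quartiles 4.804 and 17.6). The quartile ranges overlapped, and the lower quartile was not lower in Rom 6 HPA.

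Most erythroid transcripts had intervals that included 0 in this comparison. UROD had a log2 ratio of 0.51 (−0.32 to 1.32), SPTB −0.06 (−0.83 to 0.66), TFR2 −1.06 (−2.47 to 0.14) and RHD −0.99 (−2.30 to 0.14). MKI67 had a log2 ratio of −0.14 (−0.43 to 0.14), with −0.12 (−0.17 to −0.07) in other gated nuclei. NUGGC was lower in Rom 6 HPA, at −0.49 (−0.82 to −0.16), with −0.06 (−0.13 to 0.01) outside. ALAS1 was higher, at 0.94 (0.22 to 1.65), with 0.05 (−0.02 to 0.13) outside. SDCBP2, a syntenin-family adaptor, had 5 UMIs in Rom 6 HPA against 49 in Cont 6 HPA, a log2 ratio of −2.07 (−3.75 to −0.75), with −0.01 (−0.10 to 0.08) outside. HDAC1 and HDAC2, class I deacetylases that romidepsin inhibits, had 2 and 7 UMIs in Rom 6 HPA against 17 and 10 in Cont 6 HPA, with intervals that included 0. Over all marker-selected nuclei HDAC1 had 16 against 92 UMIs, a log2 ratio of −0.95 (−1.82 to −0.18), beside −0.10 (−0.23 to 0.03) in other gated nuclei.

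Several transcripts differed with an interval that left out 0, in the same direction in CUBN8.1-independent nuclei and in the others. HAS2, the hyaluronan synthase, had 2 UMIs in CUBN8.1-independent nuclei of Rom 6 HPA against 24 in Cont 6 HPA, a log2 ratio of −2.36 (−5.49 to −0.35), beside −2.58 (−2.87 to −2.30) in other gated nuclei. CITED4B, a transcriptional co-regulator, had 18 against 11 UMIs, a log2 ratio of 1.93 (0.77 to 3.16) beside 1.53 (1.38 to 1.68). SLC2A1 had 19 against 15 UMIs, a log2 ratio of 1.56 (0.51 to 2.65) beside 1.15 (1.04 to 1.25). In the whole marker-selected set, most of which was CUBN8.1-dependent, IRF7, an interferon regulator, had a log2 ratio of 2.31 (1.02 to 3.68) beside 2.06 (1.77 to 2.36), and KRT17, a keratin, −2.40 (−3.75 to −1.31) beside −2.25 (−2.46 to −2.05). TGM3, a transglutaminase of skin, had 2 against 51 UMIs and −3.10 (−6.19 to −1.18) beside −1.53 (−1.89 to −1.19). The part of free RNA in these values was not tested.

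Injury was compared as Cont 6 HPA against 0 HPA. Among 5106 symbols, 349 were over 2-fold higher in marker-selected nuclei of Cont 6 HPA than of 0 HPA (6.84%) and 283 were over 2-fold lower (5.54%), and the median log2 ratio of all symbols was −0.11. The split depended on the scaling: with median of ratios factors, 697 were higher and 84 lower, and with such factors over symbols of at least 10 UMIs on both sides, a choice made after the data were seen, 527 and 130. Of the 349 higher and 283 lower symbols, 43 and 6 were also past 2-fold in other gated nuclei, where 70 (1.37%) and 8 (0.157%) of the 5106 symbols were. The marker-selected nuclei again held far fewer UMIs than the other gated nuclei, so these shares do not compare the size of a response either. The globins did not follow the other nuclei. HBA-L5 in CUBN8.1-independent nuclei had a log2 ratio of −0.04 (−0.14 to 0.05), beside 2.01 (1.97 to 2.05) in other gated nuclei, and HBB-BH1 had −0.04 (−0.18 to 0.11) beside 1.91 (1.85 to 1.98). Both globins were thus higher in Cont 6 HPA in other gated nuclei, while in CUBN8.1-independent nuclei the intervals included 0. These ratios are of UMIs summed over nuclei. Counted within each nucleus, the median of CUBN8.1-independent nuclei was 9.50 globin UMIs per 1000 in Cont 6 HPA and 14.7 in 0 HPA. In other gated nuclei it was 1.66 and 0.387. The rule transcripts SLC4A1, RHAG and ALAS2 are not compared between libraries, because they chose the nuclei at unequal depth. Globin levels also rose with the UMIs of these transcripts, and the part of the rule in the globin ratios was not tested.

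MKI67 was lower at 6 h in CUBN8.1-independent nuclei. It had 863 CPM in Cont 6 HPA against 1828 CPM in 0 HPA, a log2 ratio of −1.08 (−1.33 to −0.83), beside −0.26 (−0.31 to −0.21) in other gated nuclei, and −1.01 without the MKI67 UMIs of the nucleus with most of them in each library. The CUBN8.1-independent nuclei were spread differently over the sub-clusters: 20.4% of them in Cont 6 HPA and 35.9% in 0 HPA lay in sub-cluster 2, and 37.96% and 7.69% in sub-cluster 1. Within sub-cluster 2, a comparison added after the data were seen, MKI67 had 1386 CPM (1139 to 1671) in 22 such nuclei of Cont 6 HPA against 3125 CPM (2516 to 3837) in 14 of 0 HPA. In sub-cluster 7 it had 965 CPM (709 to 1283) against 2528 CPM (1924 to 3261), and in sub-cluster 10 it had 652 CPM (508 to 823) against 1342 CPM (959 to 1828). In sub-cluster 1, with 3 nuclei in 0 HPA, it had 957 CPM (787 to 1152) against 1343 CPM (580 to 2646), and the intervals overlapped. In the 26 nuclei outside these 4 sub-clusters, 14 in Cont 6 HPA had 363 CPM (235 to 535) against 555 CPM (317 to 901) in 4 of 0 HPA, and the intervals overlapped as well. TOP2A had −0.80 (−1.70 to 0.16), CENPF, a kinetochore protein, −0.40 (−0.76 to −0.03), CENPE −0.29 (−0.74 to 0.18) and PCNA −0.53 (−1.23 to 0.20). FGFR4 had 25 against 22 UMIs, a log2 ratio of −1.66 (−2.55 to −0.76), beside −0.27 (−0.81 to 0.28). The clustering barred the rule transcripts but not MKI67, so MKI67 could help to set the sub-clusters. The part of the sub-cluster spread in the MKI67 difference was not tested. The gate was higher in Cont 6 HPA, and its part in these differences was not tested in CUBN8.1-independent nuclei. The fixed marker rule was also met at unequal depth, with median totals of 3289.5 UMIs in Cont 6 HPA and 2264 in 0 HPA. In gated nuclei of 0 HPA, MKI67 had 396 CPM at 0 UMIs of SLC4A1, RHAG and ALAS2 and 1962 CPM at 5 or more. In Cont 6 HPA it had 330 and 658 CPM. The part of the rule in the MKI67 difference was not tested.

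Differences of MMP8 and SOCS3 in the whole marker-selected set were close to those of the other nuclei. MMP8, a collagenase, had 527 UMIs in marker-selected nuclei of Cont 6 HPA against 18 in 0 HPA, a log2 ratio of 2.45 (1.77 to 3.22), beside 2.18 (2.09 to 2.27) in other gated nuclei. SOCS3, an inhibitor of cytokine signalling, had 121 UMIs against 1, a log2 ratio of 4.50 (1.99 to 9.81), beside 4.36 (4.02 to 4.71). In CUBN8.1-independent nuclei SOCS3 had 9 UMIs in Cont 6 HPA and 0 in 0 HPA. ELF3, an epithelial transcription factor, was lower in marker-selected nuclei, with a log2 ratio of −2.77 (−3.65 to −1.91), beside −2.75 (−2.94 to −2.57).

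Rom 6 HPA was also set beside 0 HPA, with which Cont 6 HPA shares its baseline. Among 3162 symbols, 128 were over 2-fold higher in marker-selected nuclei of Rom 6 HPA than of 0 HPA (4.05%) and 197 were over 2-fold lower (6.23%), and median of ratios factors gave 261 higher and 71 lower (258 and 78 over symbols of at least 10 UMIs). Of the 128 and 197 symbols, 35 and 11 were also past 2-fold in other gated nuclei, where 54 (1.71%) and 22 (0.696%) of the 3162 were. The marker-selected nuclei held far fewer UMIs here too, so these shares do not compare the size of a response. MKI67 in CUBN8.1-independent nuclei had a log2 ratio of −1.22 (−1.54 to −0.91), beside −0.38 (−0.43 to −0.32) in other gated nuclei. HBA-L5 had −0.37 (−0.49 to −0.26) beside 1.86 (1.81 to 1.90), and RHD had −1.62 (−3.05 to −0.31) beside 1.74 (0.75 to 2.86).

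**Figure D5:**
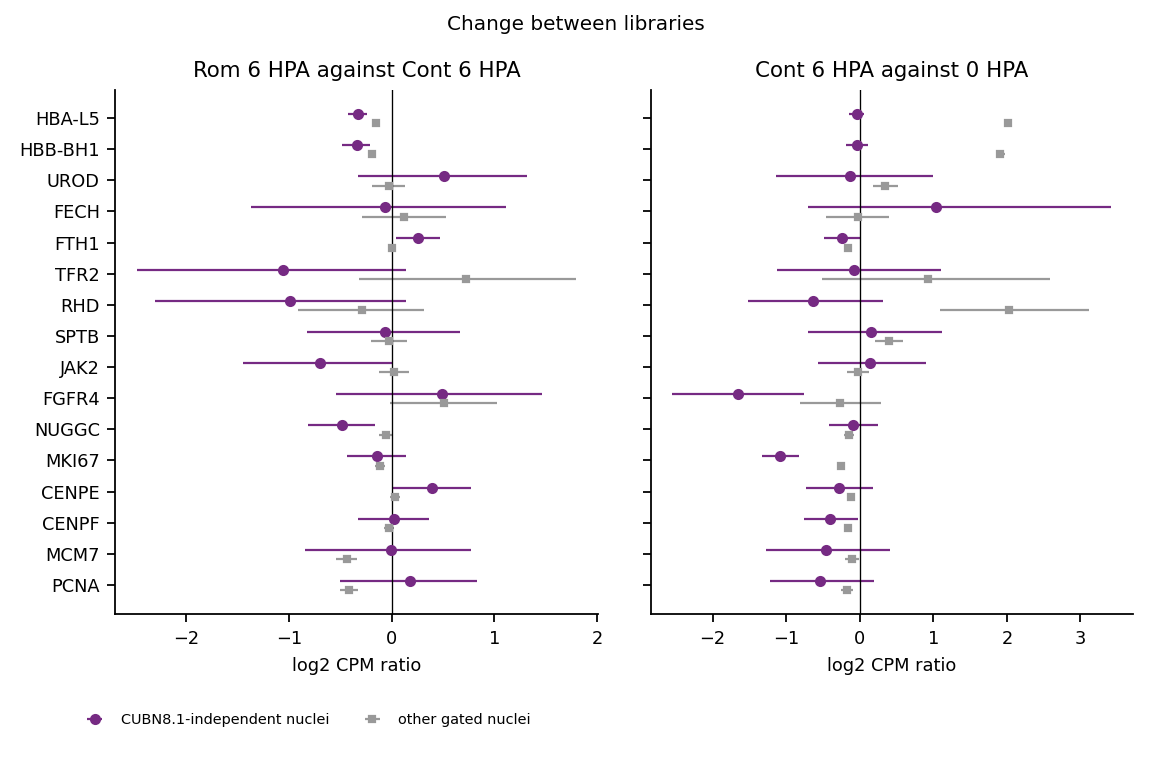
Log2 ratio of CPM, with Rom 6 HPA over Cont 6 HPA on the left and Cont 6 HPA over 0 HPA on the right, for erythroid and proliferation transcripts, in CUBN8.1-independent nuclei (circles) and other gated nuclei (squares); bars are 95% intervals for counting error, with 1 library for each condition. On the right HBA-L5 lies at −0.04 in CUBN8.1-independent nuclei and at 2.01 in the others, and MKI67 at −1.08 and −0.26.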

How the data were processed

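Single-nucleus RNA was captured on the 10x platform from 3 libraries. The authors mapped reads to an axolotl transcript assembly with Cell Ranger and deposited UMI counts per feature and barcode; the file headers name Cell Ranger 3.0.2 and the submitters' processing notes 6.0.0. The genome build is not given in the sources used here, so no coordinates or sequences are printed. Of 91648 features, 36348 carry a symbol; features were summed per symbol. Counts were summed over nuclei and given as CPM. Intervals are exact 95% Poisson, conditional or binomial intervals (scipy 1.17.1). Those of levels and ratios were checked on simulated Poisson counts, which leave out the spread between nuclei. Sub-clusters used scanpy 1.11.5 (1000 features, 10 components, 15 neighbours, resolution 1). No doublet caller was run. Named genes are the listed symbols with 20 UMIs in members, the 20 highest and 5 lowest symbols in members (50 UMIs or more), and the 10 highest and 10 lowest between libraries; some results of single genes are not reported here. The members and gene lists were chosen with earlier results of these data known. CUBN8.1-independent nuclei were set apart after the data were seen. Shares, scalings, thinning to 1300 UMIs and filters were varied as alternatives.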

Additional observations from a re-analysis of the deposited data

Results flagged for a closer look

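Barcodes below the UMI gate were outside every comparison above, and some of them met the marker rule. There were 174 such barcodes in Rom 6 HPA (0.467% of 37226), 633 in Cont 6 HPA (1.25% of 50582) and 51 in 0 HPA (0.208% of 24535). Of these, 9 in Rom 6 HPA, 25 in Cont 6 HPA and 3 in 0 HPA also met the rule without CUBN8.1. Their summed globins were 3106, 3047 and 1802 CPM, beside 2768, 3025 and 848 CPM in the other barcodes below the gate.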

How the results depend on the processing

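The limits are depth and the lack of replicates: 39 to 108 CUBN8.1-independent nuclei a library held 117041 to 420489 UMIs, so a symbol under about 20 UMIs has an interval of several-fold. No paired analysis was possible because each condition has 1 library. Shares are given for Rom 6 HPA, Cont 6 HPA and 0 HPA in turn. Without a gate they were 0.800%, 1.79% and 0.482%, and with 1 gate of 2000 UMIs 2.94% in Rom 6 HPA and 1.79% in 0 HPA. Thinned to 1300 UMIs they were 0.772%, 1.27% and 0.501%. At 2 UMIs from 2 symbols they were 5.86%, 11.4% and 3.03%, at 5 UMIs 0.586%, 1.95% and 0.658%, at 3 UMIs from any 1 symbol 3.98%, 9.92% and 4.48%, and at 3 UMIs from 3 symbols 0.799%, 2.11% and 0.487%. Leaving out CUBN8.1 gave 0.786%, 1.70% and 0.558%, SLC4A1 1.08%, 3.45% and 0.730%, ALAS2 1.54%, 4.06% and 1.13%, and RHAG 2.01% in Rom 6 HPA and 5.07% in Cont 6 HPA. Cont 6 HPA was highest in all of these.

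Symbols over 2-fold in marker-selected nuclei in each library numbered 93 higher and 442 lower for members with 5 marker UMIs, 124 and 599 for CUBN8.1-independent nuclei, 229 lower without nuclei that met another class's rule and 130 lower after thinning. That class alternative used 9 of 12 classes, chosen after the data were seen, because the rules for epidermis, muscle and fibroblast left no member. KEL in 0 HPA turned to a log2 ratio of −0.35 after thinning; the cause was not tested. Counts between libraries are given as higher and lower for Rom 6 HPA against Cont 6 HPA, Cont 6 HPA against 0 HPA and Rom 6 HPA against 0 HPA. Shares of the symbols tested are in brackets. Thinning gave 69 and 145 (2.59 and 5.45%), 171 and 136 (7.11 and 5.65%), and 57 and 80 (3.91 and 5.48%). A minimum of 10 UMIs gave 316 and 665 (4.54 and 9.56%), 715 and 612 (10.6 and 9.09%), and 384 and 528 (7.83 and 10.8%). One of 50 UMIs gave 27 and 89 (0.868 and 2.86%), 105 and 67 (3.59 and 2.29%), and 29 and 37 (2.06 and 2.63%). CUBN8.1-independent nuclei alone gave 91 and 118 (4.07 and 5.28%), 136 and 121 (6.57 and 5.85%), and 43 and 65 (3.54 and 5.35%). Median of ratios factors over all symbols seen on both sides were the alternative planned at the start. They gave 697 and 84 (13.7 and 1.65%) for Cont 6 HPA against 0 HPA and 261 and 71 (8.25 and 2.25%) for Rom 6 HPA against 0 HPA. After this was seen, the same factors over symbols with 10 UMIs on both sides were added. These gave 527 and 130 (10.3 and 2.55%), and 258 and 78 (8.16 and 2.47%). Fewer genes or nuclei enter the thinned and stricter counts by construction. Of the shares and counts, 37 values stayed near the main one and 69 moved. Counts of symbols were judged here as counts, not as shares of the symbols tested. Of the values for single genes, 570 stayed within their interval, 156 moved out of it and 1 reversed.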

Other observations

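Some further erythroid transcripts lay under the filters of the report but were concentrated in CUBN8.1-independent nuclei of Cont 6 HPA. UROS, the haem enzyme before UROD, had 8 UMIs in 7 of these nuclei, 19.03 CPM against 0.132 CPM in other gated nuclei, a ratio of 144 (34.6 to 845). GLYAT, a glycine acyltransferase that the study also lists for its erythrocyte clusters, had 10 UMIs, a ratio of 60.1 (21.96 to 167). ADA, adenosine deaminase, had 11 UMIs, a ratio of 17.5 (8.003 to 35.4). In Rom 6 HPA the same nuclei held 1, 3 and 0 UMIs of these symbols, and in 0 HPA 1, 4 and 3.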
